A study of Mus musculus with 4 samples.

Results

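The 42 replication-dependent histone genes of the array design were measured in C3H10T1/2 cells, a mouse embryo fibroblast line. The members were chosen by name, as every gene whose old cluster name begins with Hist1h, Hist2h, Hist3h or Hist4h, and they were read by 47 of the 61307 non-control probes. They make up 42 of the 50090 features of the array. The family was picked with earlier results of these arrays known, so the counts below describe it and do not test it as a group. Of the 42 genes, 37 had 1 probe and 5 had 2 probes.

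The exposed group, called 3MC+TPA, received 3MC at 2.5 µg/ml for 2 days and then normal medium for 4 days. TPA at 100 ng/ml followed, 2 times a week through 2 weeks, and then normal medium for another 4 weeks. 3MC is 3-methylcholanthrene, a polycyclic aromatic carcinogen, and TPA is a phorbol ester that activates protein kinase C. The control group was the same line kept for 6 weeks in culture, with agent given as control. The sample titles give 6 weeks of culture for both groups. Each group had 2 arrays, and all 4 arrays lay on 1 slide with 1 scan. The treatment protocol describes transformed foci in a monolayer and names no step that isolated them, so a change in the share of a kind of cell cannot be told apart from a change in RNA per cell. Whether 2 arrays of 1 group stand for separate cultures is not given in the labels, so p-values cover the spread between arrays alone, and that spread may be technical.

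Replication-dependent histone genes encode the bulk of the H2A, H2B, H3 and H4 proteins that form the nucleosome core, and the H1 proteins that bind the linker DNA between nucleosomes. They lie in clusters, lack introns, and are transcribed mainly in S phase, when new DNA has to be packaged. Their mRNAs are the main class in animal cells that ends in a conserved stem-loop, bound by the protein SLBP, in place of a poly(A) tail. Some members, such as Hist1h1c, Hist1h2bc and Hist2h2be, are also known to make polyadenylated transcripts in cells that are not dividing. Labelling on these arrays was primed with oligo-dT, per the labels' protocol. Such priming starts from a poly(A) tail, and which form of a histone mRNA each probe read was not tested. A change in probe signal may thus not be a change in the stem-loop mRNA.

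RefSeq entries of assembly GRCm38.p6 matched 41 of the 42 genes, with 31 on chromosome 13, 7 on chromosome 3, 2 on chromosome 11 and 1 on chromosome 6. Hist3h2bb was not matched. Many coding sequences in the family are nearly identical, and a 60-base probe of 1 gene can share long runs with its relatives. The following probes are shown because they read genes whose values moved together, with the run common to the genes of a class in capitals.
Hist1h2aa: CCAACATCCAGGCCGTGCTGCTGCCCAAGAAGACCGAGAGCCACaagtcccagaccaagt
Hist1h2af: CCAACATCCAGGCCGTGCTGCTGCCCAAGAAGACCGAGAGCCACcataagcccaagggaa
Hist1h2ah: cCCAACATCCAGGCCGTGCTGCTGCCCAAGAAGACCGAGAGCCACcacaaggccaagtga
Hist1h4d: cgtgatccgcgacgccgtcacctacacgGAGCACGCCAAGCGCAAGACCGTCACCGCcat
Hist1h4f: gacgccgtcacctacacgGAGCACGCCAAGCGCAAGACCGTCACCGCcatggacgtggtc
Hist2h4: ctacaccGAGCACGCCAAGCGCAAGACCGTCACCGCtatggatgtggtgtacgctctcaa
Hist1h2bk: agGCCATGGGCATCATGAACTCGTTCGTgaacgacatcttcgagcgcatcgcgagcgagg
Hist1h2bm: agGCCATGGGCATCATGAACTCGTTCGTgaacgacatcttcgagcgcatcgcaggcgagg
Hist3h2bb: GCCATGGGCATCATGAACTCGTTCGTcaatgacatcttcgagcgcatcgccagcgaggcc
The 3 H2A probes shared 44 bases, the 3 H4 probes 29 bases and the 3 H2B probes 26 bases. In all, 18 of the 47 probes shared 20 bases or more with the probe of another member, and 12 listed more than 1 RefSeq accession, up to 9 for Hist1h4d and Hist1h2bk. A probe that shares a long run with a relative may also read that relative, and how much it did was not tested. Runs were compared between probes alone, so a probe with no long shared run may still match the transcript of a relative.

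Other probes reached the end of the mRNA. The next sequences are 30-base pieces of probes around the stem-loop, with the 6-base arms of the stem in capitals and the 4-base loop between them.
Hist1h3h: tttttcaaaGGCTCTtttcAGAGCCaccca
Hist1h2ag: cgccaacaaaGGCTCTtttcAGAGCCacct
Hist1h3a: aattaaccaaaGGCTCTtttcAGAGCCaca
Hist1h3g: cactttaaaGGCTCTtcttAGAGCCaccca
Hist1h2ae: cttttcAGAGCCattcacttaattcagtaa
These 4 whole stem-loops were among 6 in all 61307 probes, a share of 0.00979%. The probe of Hist1h2ae began inside the stem-loop and read 48 bases beyond it, and the probe of Hist1h2ab ran into its start.

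Levels are log2 signals relative to the 75th percentile of the array, so 0 is that percentile, and levels of different probes are not set against each other. Of the 42 genes, 40 were tested, since their probe was well above background on both arrays of at least 1 group. Hist2h2ab was well above background on no array and Hist3h2ba on 1 of 4. Endothelial markers (3 of 3) were well above background on no array and fibroblast markers (10 of 10) on all 4, of which Thy1 rose and Pdgfra, Pdgfrb and Dcn fell in the 3MC+TPA arrays. Arrays of a group correlated at 0.988 for 3MC+TPA and 0.991 for control over all tested features.

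Of the 40 tested histone genes, 14 fell, 1 rose and 25 did not pass the threshold (limma, adjusted p under 0.05 over all 24981 features tested). Their median log2 change was -0.54, with a range of -2.42 to 1.67, and 29 of the 40 changes lay below 0. Over all features the median was -0.01, and 15.8% passed the threshold, 8.35% lower and 7.47% higher. In 25 of the 40 genes both 3MC+TPA arrays lay below both control arrays, against 31.9% of all features. In either direction, the groups did not overlap in 32 of the 40 genes and in 15923 of the 24981 features. The count of 14 was 5 without control array 2, 3 without 3MC+TPA array 1, and 2 without 3MC+TPA array 2, while leaving out control array 1 left it at 14. With no scaling of the arrays, which moved the median of all features by 0.34, 5 histone genes were called lower and 3 higher, and the share of higher calls over all features was 79.1%, against 47.2% with scaling.

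**Figure D1:**
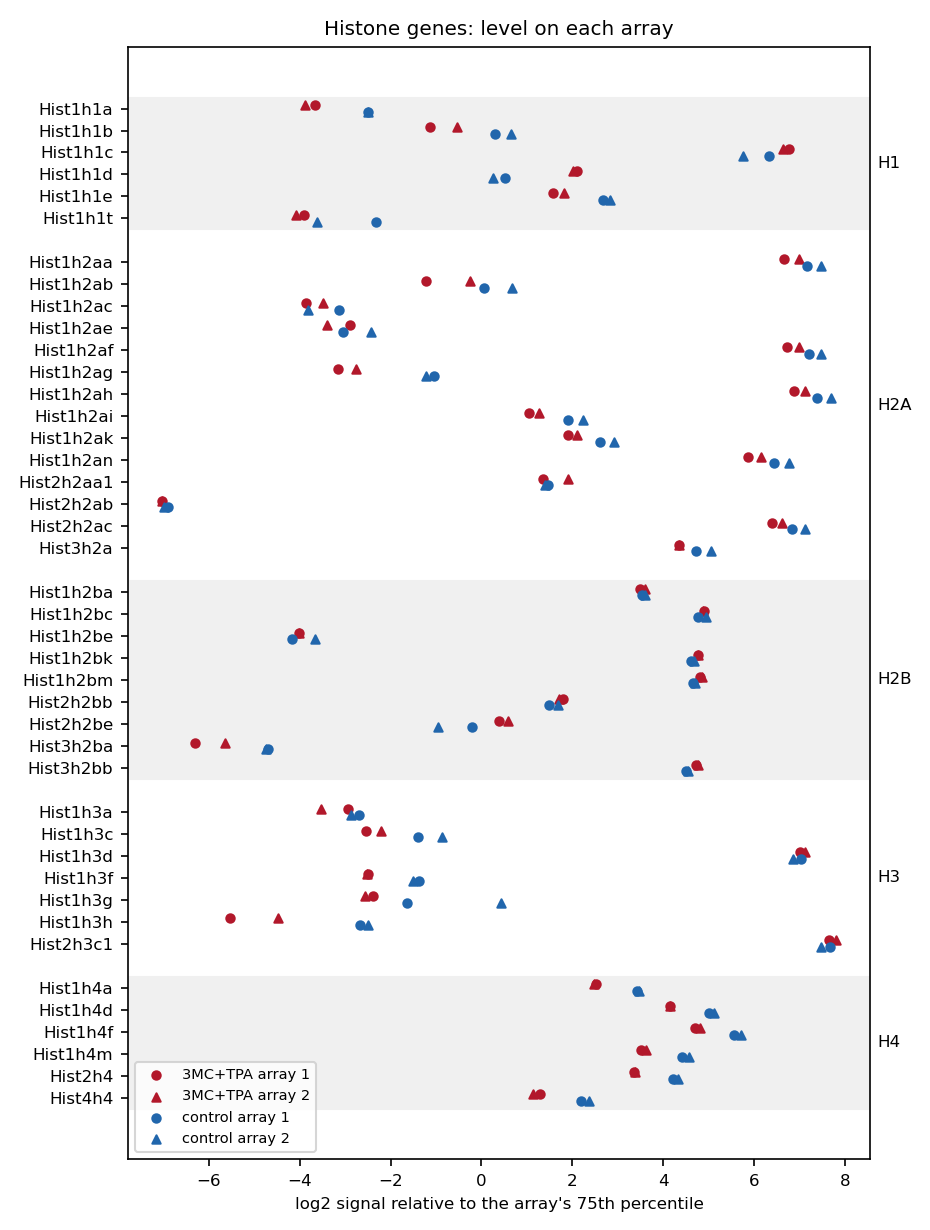
Level of each histone gene on each array, as log2 signal on a scale where the 75th percentile of an array is 0, with genes grouped by class. Red points are 3MC+TPA arrays and blue points control arrays, circles array 1 and triangles array 2; in all 6 H4 genes both red points lie to the left of both blue points.

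Probe signal for histone H4, which pairs with H3 at the centre of the nucleosome, fell in all 6 genes tested. The median log2 change was -0.92, with a range of -1.08 to -0.88, and 8.35% of all features were called lower. Hist1h4a had levels of 2.53 and 2.49 in 3MC+TPA arrays, against 3.42 and 3.48 on the control arrays. The difference was -0.94 ± 0.15 (SE, limma adjusted p = 0.0174, 2 arrays per group). In every H4 gene both 3MC+TPA arrays lay below both control arrays, which held for 31.9% of all features.

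Hist4h4, the member on chromosome 6, had levels of 1.29 and 1.14 in 3MC+TPA arrays and 2.20 and 2.38 in control arrays, a 2.11-fold lower mean (limma adjusted p = 0.0159). It shared fewer than 20 bases with any other member's probe. Hist1h4m, which also shared fewer than 20 bases, stood at 3.52 and 3.62 in 3MC+TPA arrays and 4.42 and 4.57 in control arrays (limma adjusted p = 0.0218). Both fell by about as much as the H4 genes whose probes overlapped. The Hist4h4 probe listed 2 RefSeq accessions and the Hist1h4m probe 1. Whether either probe also read transcripts of other H4 genes was not tested.

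The probes of Hist1h4d, Hist1h4f and Hist2h4, shown above, shared most of their letters. Hist1h4f had 4.70 and 4.81 in 3MC+TPA arrays and 5.56 and 5.71 in control arrays, a change of -0.88 ± 0.16 (SE, limma adjusted p = 0.0251). Hist1h4d had 4.14 and 4.16 in 3MC+TPA arrays, with 5.02 and 5.12 in control arrays (limma adjusted p = 0.0197). A second probe of Hist1h4d gave a log2 change of -0.99, against -0.91 for the first. Hist2h4, on chromosome 3, had 3.36 and 3.38 in 3MC+TPA arrays and 4.22 and 4.34 in control arrays (limma adjusted p = 0.0202).

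Among the 7 tested genes of histone H3, the partner of H4, 3 fell and none rose, with a median log2 change of -1.06. Of all features tested, 8.35% fell and 7.47% rose. Hist1h3h had -5.53 and -4.48 in 3MC+TPA arrays and -2.68 and -2.50 in control arrays, a change of -2.42 (limma adjusted p = 0.0159). It was not well above background on 3MC+TPA array 1, so the size of this change is uncertain: with normexp background correction it was -1.13 (limma adjusted p = 0.00386). Hist1h3c had -2.53 and -2.21 in 3MC+TPA arrays and -1.40 and -0.87 in control arrays, and fell by 1.24 on the log2 scale (limma adjusted p = 0.0317). Hist1h3f had -2.50 and -2.52 in 3MC+TPA arrays and -1.38 and -1.52 in control arrays (limma adjusted p = 0.0137). In these 3 genes the groups did not overlap, and 31.9% of all features were lower with no overlap.

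Hist1h3g was low on 3 of the 4 arrays. It had -2.38 and -2.56 in 3MC+TPA arrays, and -1.63 and 0.44 in control arrays. Its log2 change of -1.87 ± 0.67 (SE) did not pass the threshold (limma adjusted p = 0.123), and control array 2 alone lay far above the others.

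The H3 genes Hist1h3d and Hist2h3c1 had overlapping groups. Hist1h3d stood at 7.02 and 7.13 in 3MC+TPA arrays and 7.04 and 6.87 in control arrays, a difference of 0.12 (95% interval -0.29 to 0.53). Hist2h3c1 stood at 7.65 and 7.82 in 3MC+TPA arrays and 7.67 and 7.47 in control arrays, a difference of 0.16 (95% interval -0.27 to 0.59). Both intervals lie above the median H3 change of -1.06, which is taken over H3 genes that include these. Whether they differ from the other H3 genes was not tested.

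**Figure D2:**
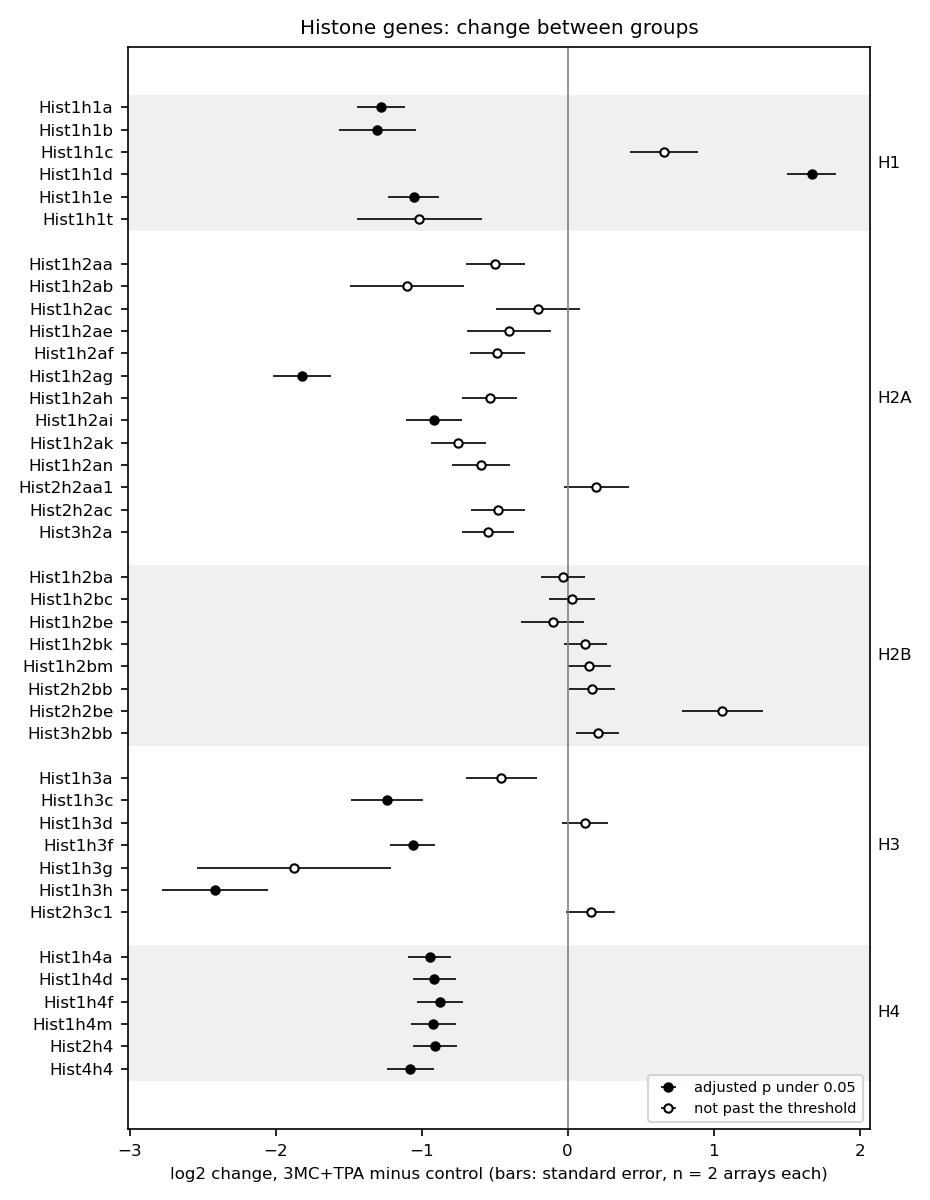
Log2 change of each of the 40 tested histone genes, 3MC+TPA minus control, with its standard error (2 arrays per group), grouped by class. Filled points passed an adjusted p of 0.05: all 6 H4 genes are filled and to the left of 0, Hist1h1d is filled and to the right, and no H2B gene is filled.

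Of the 6 tested H1 genes, 3 fell and 1 rose, against 8.35% lower and 7.47% higher over all features. The groups did not overlap in any of the 6, as in 15923 of the 24981 features tested. H1 binds the outside of the nucleosome and the linker DNA, and its subtypes differ in sequence far more than the core histones do, with no H1 probe sharing 20 bases with another member. Hist1h1a had -3.65 and -3.89 in 3MC+TPA arrays and -2.50 and -2.49 in control arrays, a 2.43-fold lower mean (limma adjusted p = 0.0105). Hist1h1b had -1.14 and -0.53 in 3MC+TPA arrays and 0.30 and 0.65 in control arrays, a 2.47-fold lower mean (limma adjusted p = 0.0333). Hist1h1e had 1.58 and 1.83 in 3MC+TPA arrays and 2.67 and 2.84 in control arrays, a 2.08-fold lower mean (limma adjusted p = 0.0199).

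Hist1h1d, which encodes the subtype H1.3, was the 1 histone gene that rose. It stood at 2.11 and 2.02 in 3MC+TPA arrays and 0.52 and 0.26 in control arrays, a change of 1.67 ± 0.17 (SE, limma adjusted p = 0.00551). Its second probe had -0.78 and -1.16 in 3MC+TPA arrays and -1.83 and -1.38 in control arrays, and its change of 0.64 ± 0.24 (SE) did not pass the threshold (limma adjusted p = 0.131, with every probe tested on its own). The probes agree in sign and differ in size.

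Hist1h1c, a subtype known to be kept up in cells that are not dividing, had 6.78 and 6.65 in 3MC+TPA arrays and 6.34 and 5.77 in control arrays, a change of 0.66 (limma adjusted p = 0.122). Hist1h1t, the testis subtype, had -3.90 and -4.07 in 3MC+TPA arrays and -2.33 and -3.61 in control arrays, with no call (limma adjusted p = 0.172).

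The promoters of Hist1h1d and Hist1h1e are shown because these H1 genes, both on chromosome 13, moved in opposite directions. Each is the 250 bases before the start of the gene in RefSeq (GRCm38.p6), on the strand of the gene, with matches to the TATA letters TATAAA, the CCAAT letters CCAAT and the H1 box AAACACA on either strand in capitals. Hist1h1d lies at chr13:23554782-23555031 on the plus strand and Hist1h1e at chr13:23622559-23622808 on the minus strand.
Hist1h1d: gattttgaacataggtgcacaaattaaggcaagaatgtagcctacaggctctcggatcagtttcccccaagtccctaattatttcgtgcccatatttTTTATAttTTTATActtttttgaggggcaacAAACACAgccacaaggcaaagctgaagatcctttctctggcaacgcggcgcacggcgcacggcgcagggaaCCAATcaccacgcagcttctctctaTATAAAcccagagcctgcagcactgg
Hist1h1e: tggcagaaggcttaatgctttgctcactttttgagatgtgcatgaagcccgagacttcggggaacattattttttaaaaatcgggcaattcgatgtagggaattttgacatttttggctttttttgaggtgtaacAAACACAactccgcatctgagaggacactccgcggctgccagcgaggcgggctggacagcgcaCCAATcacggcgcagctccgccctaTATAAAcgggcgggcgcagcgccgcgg
Both hold all 3 motifs. Across the 37 promoters matched for 36 histone genes, each a window of 300 bases reaching past the start, TATAAA was found in 62.2% against 13.6% of all 32851 promoters in the table, and CCAAT in 91.9% against 37.4%. AAACACA was in 5 of 6 H1 promoters and in 7.18% of all promoters. The octamer ATTTGCAT was in 5 of 7 H2B and 7 of 14 H2A promoters, in 0 of the H1, H3 and H4 promoters, and in 1.74% of all promoters. A match is a description of the letters and not a site.

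Among 13 tested genes of histone H2A, 2 fell and none rose, with a median log2 change of -0.53. The share called was no higher than the 15.8% over all features. Hist1h2ag had -3.15 and -2.76 in 3MC+TPA arrays and -1.04 and -1.23 in control arrays, a 3.53-fold lower mean (limma adjusted p = 0.00694). Hist1h2ai had 1.05 and 1.28 in 3MC+TPA arrays and 1.91 and 2.24 in control arrays, a 1.88-fold lower mean (limma adjusted p = 0.0367). Neither gene had overlapping groups, and 31.9% of all features were lower with no overlap.

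The 3 H2A genes whose probes are shown above gave nearly 1 value. Hist1h2aa, known from the germ line, had 6.66 and 6.98 in 3MC+TPA arrays and 7.16 and 7.47 in control arrays. Hist1h2af had 6.72 and 6.99 in 3MC+TPA arrays and 7.21 and 7.47 in control arrays. Their changes of -0.50 and -0.48, and that of -0.53 for Hist1h2ah, did not pass the threshold (limma adjusted p = 0.161, 0.146 and 0.123).

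The variant gene H2afj, which makes a polyadenylated H2A.J mRNA and is no member, has a probe that shares 20 bases or more with these 3 probes. It had 6.97 and 7.22 in 3MC+TPA arrays and 7.31 and 7.51 in control arrays. Whether these probes also read H2afj was not tested. Of the 4 germ-cell markers, Tnp1 and Prm1 were well above background on all 4 arrays, Dazl on 1 and Ddx4 on none, and neither of the 2 tested was called.

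The groups overlapped in Hist1h2ac, Hist1h2ae and Hist2h2aa1, the H2A genes with the smallest changes (-0.20, -0.40 and 0.20). Hist1h2ab had -1.23 and -0.25 in 3MC+TPA arrays and 0.05 and 0.66 in control arrays, with a gap between the 3MC+TPA arrays nearly as large as the change of -1.10 (limma adjusted p = 0.121).

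None of the 8 tested H2B genes passed the threshold, and their median log2 change was 0.13, with a range of -0.10 to 1.06. H2B dimerises with H2A in the nucleosome. Hist1h2bm had 4.80 and 4.85 in 3MC+TPA arrays and 4.66 and 4.70 in control arrays, a difference of 0.15 (95% interval -0.23 to 0.52). Hist1h2bc had 4.89 and 4.87 in 3MC+TPA arrays and 4.76 and 4.95 in control arrays, a difference of 0.03 (95% interval -0.37 to 0.43). Hist1h2ba, the testis subtype, differed by -0.03 (95% interval -0.42 to 0.35).

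The largest H2B change was in Hist2h2be, with 0.39 and 0.58 in 3MC+TPA arrays and -0.21 and -0.95 in control arrays. The groups did not overlap, and the change of 1.06 ± 0.28 (SE) missed the threshold (limma adjusted p = 0.0652). The 3 genes with known polyadenylated transcripts, Hist1h1c, Hist1h2bc and Hist2h2be, had a median change of 0.66, and none was called. Whether H2B and H4 genes differ in their change was not tested.

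By cluster, 12 of 31 tested genes of cluster 1 fell and 1 rose, with a median log2 change of -0.75. In cluster 2, on chromosome 3, the H4 gene Hist2h4 fell and the other 5 were not called, with a median of 0.16 over all 6. The 2 genes of cluster 3 were not called.

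Genes of 1 class whose probes shared a long run had nearly the same change. Over the 7 pairs with 30 or more shared bases the absolute difference in log2 change had a median of 0.036 and reached at most 0.056. Over the 183 pairs with fewer than 20 shared bases the median was 0.34 and the highest 2.98, between the H1 genes Hist1h1b and Hist1h1d. These pairs mix classes, and H4 pairs with fewer than 20 shared bases differed by at most 0.20. Whether a shared run accounts for a similar change was not tested. Genes that share a probe run may read the same transcripts. Among the 16 tested genes with 20 or more shared bases 7 fell and none rose (median change -0.67). Among the other 24 genes 7 fell and 1 rose (median change -0.44), against 8.35% lower and 7.47% higher over all features.

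**Figure D3:**
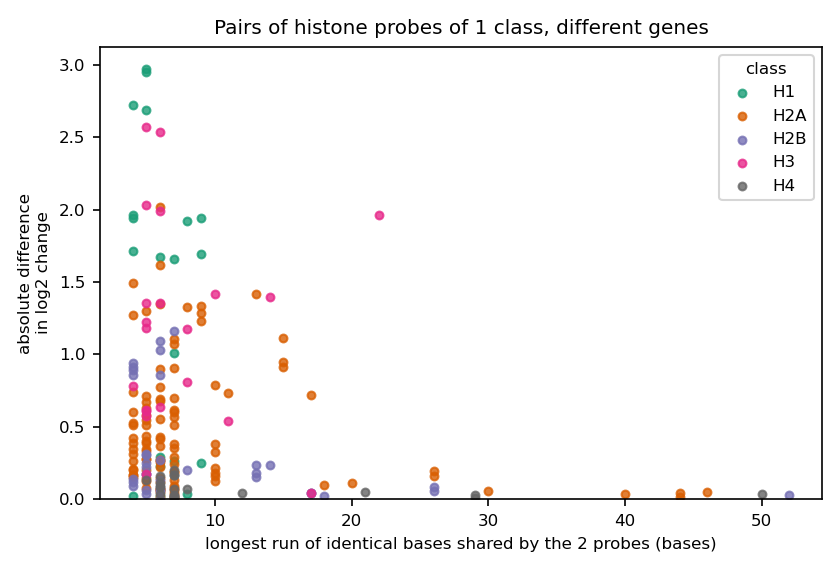
Absolute difference in log2 change between 2 histone probes of 1 class and different genes (vertical axis) against the longest run of bases they share (horizontal axis), coloured by class. Every pair with 30 or more shared bases lies at or below 0.056, and the high point at 22 bases is Hist1h3a with Hist1h3h, which share the stem-loop.

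The 6 genes whose probe holds or reaches the stem-loop all lay below 0, with a median change of -1.46. Of these 6, 2 were called lower, Hist1h3h and Hist1h2ag, against 8.35% of all features. Hist1h3a, with a whole stem-loop too, had -2.94 and -3.54 in 3MC+TPA arrays and -2.70 and -2.86 in control arrays (change -0.46, limma adjusted p = 0.256). Hist1h3a and Hist1h3h share 22 bases there and differed by 1.96 in log2 change, a gap that rests in part on the dim value of Hist1h3h on 3MC+TPA array 1.

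The 2 arrays of each group were then set against each other, array 1 minus array 2, with no test since each side is 1 array. Over the 40 genes the median difference in log2 level was -0.10 between the 3MC+TPA arrays and -0.15 between the control arrays, against -0.03 and 0.02 over all features. Past 2-fold were Hist1h3h between the 3MC+TPA arrays (-1.05), and Hist1h3g (-2.07) and Hist1h1t (1.28) between the control arrays. Over all features, 2.32% passed 2-fold between the 3MC+TPA arrays and 3.61% between the control arrays.

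H2A genes had a median gap of -0.27 between the 3MC+TPA arrays and -0.31 between the control arrays, about as far apart in both groups. H4 genes had a median gap of -0.02 between the 3MC+TPA arrays and -0.13 between the control arrays, both far smaller than their median change of -0.92. The next largest gaps between the control arrays were 0.74 in Hist2h2be, 0.70 in Hist1h2ac and -0.62 in Hist1h2ae.

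**Figure D4:**
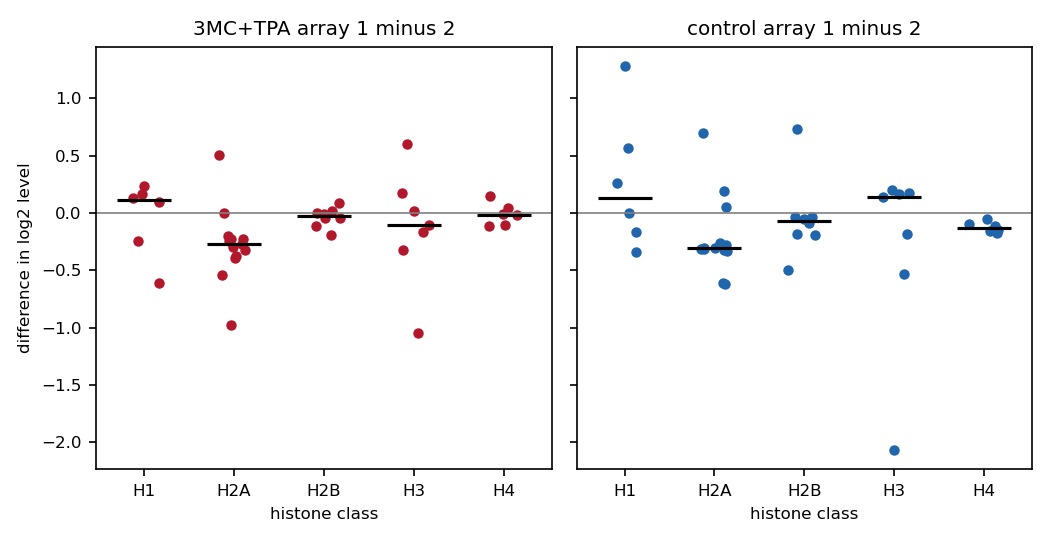
Difference in log2 level between array 1 and array 2 of 3MC+TPA (left, red) and of control (right, blue) for each tested histone gene by class, with the median as a line. The lowest point on the left is Hist1h3h at -1.05 and the lowest on the right is Hist1h3g at -2.07.

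Genes that make and trim histone mRNA were read from the same fit. Of 18 tested genes for histone transcription and 3′ end processing, 1 rose and 1 fell, with a median log2 change of 0.01. This share was no higher than the 15.8% called over all features. Lsm11, a protein of the U7 particle that cuts histone pre-mRNA, fell, with -2.43 and -2.43 in 3MC+TPA arrays and -1.69 and -1.12 in control arrays (2.04-fold, limma adjusted p = 0.0437). Mif4gd, a partner of SLBP in histone mRNA translation, rose, with 3.26 and 2.82 in 3MC+TPA arrays and 2.14 and 1.61 in control arrays (2.25-fold, limma adjusted p = 0.0433). The call held in 10 of 16 alternatives for Lsm11 and in 11 of 16 for Mif4gd.

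Slbp itself had 2.79 and 2.73 in 3MC+TPA arrays and 2.77 and 2.84 in control arrays, a difference of -0.05 (95% interval -0.43 to 0.33). Npat, the cyclin E-dependent coactivator of histone genes, had 0.54 and 0.51 in 3MC+TPA arrays and -0.11 and 0.08 in control arrays (change 0.54, limma adjusted p = 0.0828). The groups overlapped for Slbp and not for Npat.

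Of 23 tested S-phase genes, 4 fell and 1 rose, with a median log2 change of -0.90. Over all features, 8.35% were called lower and 7.47% higher. Pola1, the catalytic subunit of DNA polymerase alpha, had 0.09 and -0.32 in 3MC+TPA arrays and 1.32 and 1.83 in control arrays (3.22-fold lower, limma adjusted p = 0.0154). Cdc6, which helps to load the replicative helicase, was 2.83-fold lower in the 3MC+TPA arrays (limma adjusted p = 0.0321). Mcm4, a subunit of that helicase, was 2.49-fold lower (limma adjusted p = 0.0357), and Mcm6 was 1.94-fold lower. Cdk2 rose at least 2.01-fold (limma adjusted p = 0.0106) and was not well above background on either control array. The median S-phase gene also differed by -0.70 between control array 1 and control array 2, and the median of 14 mitosis genes, none of them called, by -1.14. The part of this gap in the histone values was not tested.

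Replication-independent and variant histones (11 tested) had no call and a median log2 change of -0.02. H2afx, which is phosphorylated at DNA breaks and has transcripts of both kinds of end, had 4.70 and 4.38 in 3MC+TPA arrays and 5.32 and 6.13 in control arrays (change -1.19, limma adjusted p = 0.0632). Of 19 histone chaperone and assembly genes, 2 fell and none rose, a share no higher than the 15.8% called over all features. Rbbp7, a subunit shared by chromatin assembly complexes, was 1.65-fold lower and Atrx, a chromatin remodeller that works with Daxx, 1.79-fold lower in the 3MC+TPA arrays (limma adjusted p = 0.0341 and 0.0288). Each kept its call in 8 of 16 alternatives and lost it with any 1 array left out, and Rbbp7 also lost it with the replicate block (limma adjusted p = 0.0604).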

How the data were processed

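RNA of 2 3MC+TPA and 2 control samples was read in 1 colour on a custom mouse array, with groups taken from the sample labels. The processed signal came from Agilent Feature Extraction 10.7.3.1, per the file headers, and is an intensity after background subtraction and detrending, made beside the scanner flags; mean and background intensity served an alternative. The deposited table holds log2 values of the authors, which match the levels defined next within 0.01 for at least 61302 of 61307 probes up to a constant. Its column medians are -4.39 and -4.35 for 3MC+TPA and -4.29 and -4.31 for control arrays.

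Levels are log2 processed signal after subtracting, per array, the 75th percentile of its non-control spots (701 and 747 on the 3MC+TPA arrays, 543 and 595 on the control arrays). The 1319 control spots and spots with an outlier flag (20 to 68 per array) were left out; no spot was saturated and no histone spot was flagged. A gene was read by its brightest probe. limma 3.58.1 in R 4.3.3 compared the groups (lmFit, eBayes, 2-sided, no covariates, Benjamini-Hochberg over the features tested), after the code was tested on simulated data. Slide position cannot be told apart from the single array, and how positions were split between the groups was not examined. The number of arrays limits the precision. Members, lists and the naming rule were chosen with earlier results of these data known. Genes named were all called histone genes, the brightest and most changed per class, and those with the largest gaps between control arrays. Histones with polyadenylated or germ-cell transcripts, Slbp, Npat and up to 3 genes per list were also named. Hist1h2ab, Hist1h3a, Hist2h2aa1, Hist1h2bk, Hist3h2bb, Cdk2, Mcm6, H2afj and the markers were added after their values were seen. Array numbers came from the labels but did not pair the samples: deviations of arrays with the same number correlated at 0.0028 over 24919 features. Alternatives covered background correction, scaling, filters, probe summary, left-out arrays and the methods' t-test.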

Additional observations from a re-analysis of the deposited data

How the results depend on the processing

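Over all features 3952 were called, 6723 without scaling between arrays, 907 with no filter on dim probes, and 23 by the methods' t-test after Benjamini-Hochberg (5721 unadjusted); with 1 array left out the count ran from 1183 to 3328. The 14 lower histone genes became 5 without scaling, 0 with no filter, 0 by the methods' t-test after Benjamini-Hochberg (12 unadjusted) and 2 to 14 with 1 array left out; limma gave 25 histone genes of either direction at an unadjusted p under 0.05. The count of 1 higher gene became 3 with normexp background, 3 without scaling, 2 with only probes well above background on all arrays, 2 with an intensity trend, 0 by the methods' t-test (3 unadjusted) and 1 to 2 with 1 array left out. The median histone change of -0.54 became -0.19 without scaling and ran from -0.70 to -0.48 with 1 array left out; the median gap between control arrays of -0.15 became -0.29 without scaling. With the replicate block, 3589 features, 15 lower and 1 higher histone gene were called, and among the genes named by rule it ended the call of Rbbp7 alone (adjusted p = 0.0604, limma). Direction turned for Hist1h2ac (0.15 without scaling, -0.55 to 0.15 with 1 array left out), Hist1h2ba (0.0203 with quantile normalization, 0.32 without scaling, -0.0878 to 0.0226 with 1 array left out), Hist1h2bc (-0.0646 to 0.12 with 1 array left out) and Slbp (0.00849 with normexp, 0.30 without scaling), none of them called. None of the 15 called histone genes reversed under any alternative run; 15 kept the call with normexp, quantile or the authors' deposited values, 6 without scaling and 1 with no filter. With 1 array left out, the lone array of its group is assumed to vary like the other group. The causes of these changes were not tested.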
